A study of Homo sapiens with 6 samples.

Results

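The NRF2 oxidative stress pathway was followed through 9 genes in HT1080, an established human fibrosarcoma cell line. The genes were the regulators NFE2L2, KEAP1 and BACH1 and the targets HMOX1, NQO1, TXNRD1, SRXN1, AKR1B10 and AKR1C1. They were taken by symbol, 9 of the 62710 Ensembl genes in the table of expression values, and all 9 were high enough to be tested. HT1080 cells were left untreated (3 libraries) or were given IFNβ at 20 ng/mL for 24 h (3 libraries). No other agent or allele is named for the sequenced libraries of either group. The labels call the IFNβ human, whereas the sequencing methods of the study name mouse IFNβ. The study's statistics section calls its in vitro results independent biological replicates in general, but neither it nor the labels say that the sequenced libraries of a group came from separate cultures, and p-values measure the spread between these libraries, which may be technical. The comparison asked how the transcripts of this pathway differ after IFNβ, and in particular how HMOX1 and its repressor BACH1 stand against the other targets.

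NFE2L2 encodes NRF2, a transcription factor that binds antioxidant response elements as a dimer with a small MAF protein. KEAP1 is the adaptor that hands NRF2 to a CUL3 ubiquitin ligase in unstressed cells, so that NRF2 is controlled mostly as a protein and its transcript is only part of the picture. BACH1 is a heme-binding repressor that occupies many of the same elements, and HMOX1 is the target best known for its control by BACH1. HMOX1 breaks heme down into iron, carbon monoxide and biliverdin, and for that reason it is followed in studies of iron-dependent cell death.

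The expression values were FPKM, the fragments of a gene scaled to gene length and to library size, and library size was between 22848104 and 32915500 fragments. The cells carried the markers of their type, since all 8 mesenchymal markers averaged at least 1 FPKM. They summed to between 905 and 959 FPKM in untreated and between 926 and 954 FPKM in IFNβ libraries. Single markers moved both ways within this sum. VIM had 382 to 426 FPKM in untreated and 320 to 334 FPKM in IFNβ libraries. SPARC had 261 to 277 FPKM and 321 to 344 FPKM. The 7 epithelial markers summed to between 0.256 and 0.464 FPKM in untreated libraries and between 0.627 and 0.662 FPKM in IFNβ libraries, and EPCAM was at 0 in every untreated library. The 4 endothelial markers summed to between 0.268 and 0.421 FPKM and between 0.471 and 0.530 FPKM, and the 6 blood markers stayed at or under 0.231 FPKM in every library. The part of these low markers in the results was not tested. As a check of the treatment, all 8 interferon response genes listed were higher after IFNβ, by 2.79 to 8.67 on the log2 scale.

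Promoter sequences are shown because the regulators NRF2 and BACH1 bind DNA elements, although the 9 genes were taken by symbol. RefSeq promoter windows of 300 bases (GRCh38.p14), most of each upstream of a transcription start, were matched for 7 of the 9 genes, with 12 windows in all. HMOX1 and AKR1B10 were not matched. The core of the antioxidant response element, searched as TGACNNNGC on both strands, lay in 3 of the 12 windows, those of TXNRD1 and KEAP1, and in 13.3% of all 35116 windows of this length. The sites are given 5′ to 3′ on the strand of the gene with 10 bases on either side, and capitals mark the match, which reads as the reverse complement where it opens with GC.
TXNRD1, 99 bases before the start, chr12:104215670-104215698, + strand: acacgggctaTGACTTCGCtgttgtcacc
TXNRD1, 8 bases before the same start, chr12:104215761-104215789, + strand: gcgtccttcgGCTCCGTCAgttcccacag
TXNRD1, 102 bases before another start, chr12:104286920-104286948, + strand: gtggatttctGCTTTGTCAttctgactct
KEAP1, 54 bases before the start, chr19:10502807-10502835, − strand: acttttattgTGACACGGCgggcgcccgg
KEAP1, 31 bases before the same start, chr19:10502784-10502812, − strand: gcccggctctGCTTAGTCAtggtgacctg

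The windows of BACH1 held no such core. A related element, the AP-1 site TGANTCA, lay in 1 of the 12 windows, that of BACH1, and in 7.71% of all windows.
BACH1, 48 bases before the start, chr21:29298864-29298890, + strand: gcggaaggagTGAGTCAcctgaccgct
For elements of the interferon pathway, a pair of GAAA words with any 2 bases between them, a core of the interferon-stimulated response element, was searched on both strands and found in 1 window of TXNRD1 (3.57% of all windows), and the palindrome TTCNNNGAA of the gamma-activated site in none of the 12 (7.66% of all windows). A match of these letters is a description of the window and not evidence of binding. A window without a match does not show that the gene lacks the element, since bases outside the window were not searched. Since HMOX1 and AKR1B10 had no window, the matches were not compared with the calls below.

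In untreated cells TXNRD1 was the highest, followed by NQO1 and HMOX1, whose libraries overlapped, then KEAP1, BACH1, NFE2L2 and SRXN1, the last pair again overlapping, and finally AKR1B10 and AKR1C1. The order was the same after IFNβ, but there no neighbours in the order overlapped. Levels between genes depend on the gene lengths used by the authors. For NFE2L2 the values imply 14975 bases, against 5979 exon bases in GENCODE release 29, so its FPKM are low for its fragments, which numbered 2317 to 3531 per library.

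Groups were compared with limma on log2(FPKM + 0.1) over all 20716 genes with a mean of at least 0.1 FPKM, and a gene was called at a Benjamini-Hochberg adjusted p-value under 0.05. Of the 9 genes, 4 were called, 3 higher (BACH1, NFE2L2 and NQO1) and 1 lower (HMOX1) after IFNβ. Over all genes tested, 32.7% were called, 15.2% higher and 17.5% lower, so a call is common in these libraries and the count of 4 is no result about the 9 genes as a group. In the same 4 genes the IFNβ libraries did not overlap the untreated ones, which held for 46.6% of all genes tested, with 22.3% above and 24.3% below. Each library holds the RNA of many cells, so fewer cells with a transcript and less transcript per cell cannot be told apart. The values are also relative to the library and do not give absolute amounts. None of the 9 reached an absolute log2 fold change of 1, which 4.22% of genes tested did together with the adjusted p-value.

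**Figure D1:**
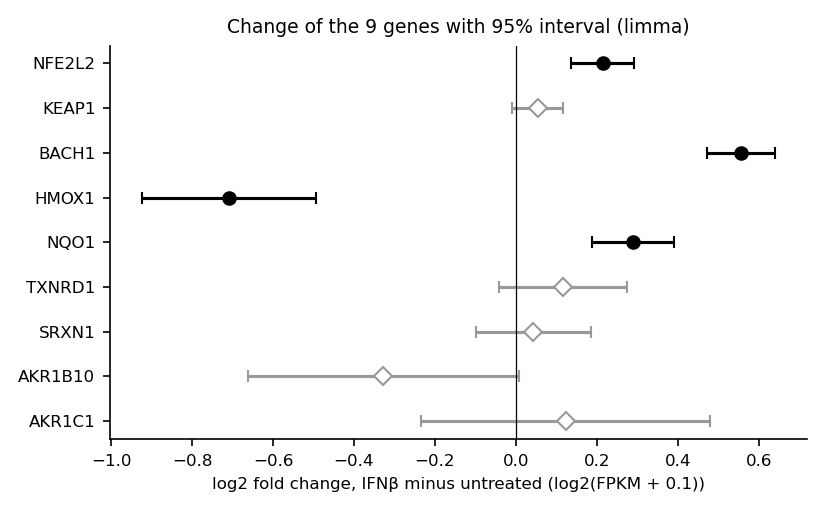
Log2 fold change (IFNβ minus untreated, on the log2(FPKM + 0.1) scale, horizontal axis) of the 9 genes with the 95% interval from limma. Filled circles are genes called, open diamonds genes not called. HMOX1 stands alone below 0 among the genes called, and the interval of AKR1B10 ends just above 0.

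Among the regulators, BACH1 showed the largest difference. BACH1 (chr21:29194071-29630751, + strand, GRCh38) had 11.0, 10.6 and 10.1 FPKM in untreated cells and 15.5, 15.5 and 15.8 FPKM after IFNβ. The groups lay well apart, and the libraries within each were close to one another. Its mean of 10.6 ± 0.446 FPKM (S.D., n = 3) rose 1.47 times to 15.6 ± 0.183 FPKM (S.D., n = 3), or by 0.56 ± 0.04 (SE) on the log2 scale (limma adjusted p = 8.2e-05). Among the genes tested, 19.4% had a larger absolute change. Exons of LINC00189 (302 shared bases, same strand) and GRIK1 (45 shared bases, opposite strand) overlap BACH1. Over the 6 libraries LINC00189 had 0.0299 to 0.161 FPKM and GRIK1 0.0721 to 0.179 FPKM. The part of these 2 genes in the BACH1 values was not tested.

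NFE2L2 (chr2:177227595-177392697, − strand) had 6.77, 6.43 and 6.42 FPKM in untreated and 7.66, 7.57 and 7.58 FPKM in IFNβ libraries. Every IFNβ library was above every untreated one, by a small step. NFE2L2 rose by 0.21 ± 0.03 (SE) on the log2 scale (limma adjusted p = 0.0032), and 52.8% of the genes tested changed by more. Exons of 3 other genes overlap NFE2L2, of which AC079305.1 and AGPS are on the opposite strand, and it is not stated whether the counting used strand. AGPS, which shares 54 exon bases, had 11.0 to 11.2 FPKM in untreated and 9.25 to 9.42 FPKM in IFNβ libraries. AC019080.1, which shares 1054 exon bases on the same strand, had 0.126 to 0.137 FPKM in untreated and 0.175 to 0.206 FPKM in IFNβ libraries, and AC079305.1 had 0.351 to 0.743 and 0.321 to 0.832 FPKM. Their part in the NFE2L2 values was not tested.

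KEAP1 (chr19:10486120-10503741, − strand) had 23.8, 23.4 and 24.7 FPKM in untreated and 24.6, 25.2 and 24.9 FPKM in IFNβ libraries. The groups overlapped. Its log2 fold change was 0.05, with a 95% interval from -0.0086 to 0.12 (limma adjusted p = 0.17). The ratio of BACH1 to NFE2L2 within each library was 1.63, 1.65 and 1.58 in untreated and 2.02, 2.04 and 2.08 in IFNβ libraries, a difference of 0.34 in log2 ratio. The ratios did not overlap, and p = 0.10 in a two-sided exact permutation test, the smallest that 3 libraries against 3 allow.

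Among the 6 targets, HMOX1 was the only gene called lower. HMOX1 (chr22:35380361-35394214, + strand, 6 exons), the inducible heme oxygenase, had 48.0, 39.6 and 47.7 FPKM in untreated cells and 29.8, 25.6 and 27.1 FPKM after IFNβ. The highest IFNβ library was well below the lowest untreated library, which was replicate 2. Its mean of 45.1 ± 4.75 FPKM (S.D., n = 3) fell to 27.5 ± 2.10 FPKM (S.D., n = 3), which is 0.610 of the untreated level, on 1475 to 3619 fragments per library. On the log2 scale the difference was -0.71 ± 0.09 (SE, 95% interval -0.92 to -0.49, limma adjusted p = 0.0015), and 13.8% of the genes tested had a larger absolute change. No other annotated gene shares its exons.

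NQO1 (chr16:69706996-69726951, − strand), a quinone reductase used widely as a readout of NRF2, moved the other way. It had 48.6, 44.6 and 49.7 FPKM in untreated and 59.0, 58.3 and 57.1 FPKM in IFNβ libraries. The groups did not overlap, and the IFNβ libraries were closer together than the untreated ones. NQO1 rose by 0.29 ± 0.04 (SE) on the log2 scale (limma adjusted p = 0.0027), and 41.8% of the genes tested changed by more. An antisense gene over its exons, AC092115.2, is listed at 0 in every library.

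TXNRD1 and SRXN1 act in the thioredoxin system, TXNRD1 as the cytosolic reductase of thioredoxin and SRXN1 as the enzyme that restores overoxidized peroxiredoxins. TXNRD1 (chr12:104215779-104350305, + strand) had 143, 124 and 144 FPKM in untreated and 156, 144 and 145 FPKM in IFNβ libraries. The groups met at their edges, and untreated replicate 2 was the low one. Its log2 fold change was 0.12 (95% interval -0.04 to 0.27, limma adjusted p = 0.23). With limma-voom on the recovered fragments, the same difference had an adjusted p of 0.012, so the call of TXNRD1 depends on the method. SRXN1 (chr20:646615-653370, − strand) had 6.53, 5.77 and 6.03 FPKM in untreated and 6.56, 6.37 and 5.96 FPKM in IFNβ libraries. The groups overlapped, with a log2 fold change of 0.04 (95% interval -0.10 to 0.18, limma adjusted p = 0.64). SRXN1 shares 2292 exon bases with AL121758.1 on the same strand, listed at 0.0745 to 0.192 FPKM, and fragments there cannot be assigned to one of the genes.

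The aldo-keto reductases AKR1B10 and AKR1C1 reduce carbonyls of lipids and steroids, and had the lowest levels of the 9 genes. AKR1B10 (chr7:134527592-134541408, + strand) had 1.48, 1.39 and 1.73 FPKM in untreated and 1.15, 1.04 and 1.43 FPKM in IFNβ libraries, on 46 to 101 fragments. IFNβ replicate 3 reached into the untreated range. Its log2 fold change was -0.33 with a 95% interval from -0.66 to 0.0071 (limma adjusted p = 0.13), which does not show that AKR1B10 stayed level. AKR1C1 (chr10:4963253-4983283, + strand) had 0.699, 0.565 and 0.738 FPKM in untreated and 0.841, 0.681 and 0.683 FPKM in IFNβ libraries, on 140 to 227 fragments. The groups overlapped, and the log2 fold change of 0.12 had a 95% interval from -0.23 to 0.48 (limma adjusted p = 0.59).

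The level of AKR1C1 carries a further limit from its sequence. Between the longest reading frames in GENCODE release 29, AKR1C1 and AKR1C2 were identical at 953 of 972 bases (98.0%), with a longest shared run of 189 bases, while AKR1C1 and AKR1C3 shared 91.9% and AKR1B10 and AKR1B15 85.3%. The stretch below, coding bases 103 to 162, is where AKR1C1 and AKR1C2 differ most, and capitals mark the 10 differing bases.
AKR1C1: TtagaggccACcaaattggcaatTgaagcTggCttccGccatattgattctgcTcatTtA
AKR1C2: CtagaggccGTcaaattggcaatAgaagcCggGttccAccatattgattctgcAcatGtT
AKR1C2 itself was listed at 0.0332 to 0.158 FPKM and was below the level for testing. How fragments that match both genes were counted is not stated, so the split between them is uncertain.

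HMOX1 was then set against each of the other 5 targets within the same library, which takes scaling between libraries out of the comparison. The ratio of HMOX1 to NQO1 was 0.988, 0.888 and 0.960 in untreated and 0.504, 0.439 and 0.475 in IFNβ libraries. Near parity before, HMOX1 thus stood far below NQO1 after IFNβ, a difference of -0.997 in log2 ratio. The differences were -0.83 against TXNRD1, -0.75 against SRXN1, -0.83 against AKR1C1 and -0.38 against AKR1B10. In all 5 ratios the groups did not overlap, and each had p = 0.10 in a two-sided exact permutation test, the smallest this design allows, and 0.10 after Benjamini-Hochberg adjustment over the 5. They share the HMOX1 values and so are not independent of one another.

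**Figure D2:**
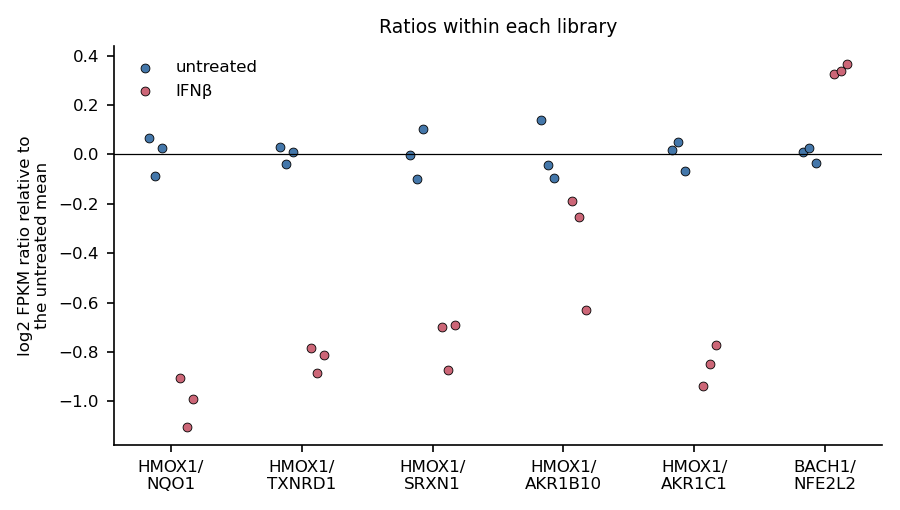
Log2 ratio of FPKM (nothing added) within each library, relative to the untreated mean (vertical axis). Ratios are HMOX1 over each of the 5 other targets and BACH1 over NFE2L2 (horizontal axis). The differences in log2 ratio in the text were computed with 0.1 FPKM added. Each point is 1 library, blue untreated and red IFNβ. The 5 HMOX1 ratios are lower and the BACH1 ratio is higher in all IFNβ libraries, with the narrowest gap for AKR1B10.

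Further ratios were chosen after their values had been seen. HMOX1 to BACH1 was 4.36, 3.74 and 4.71 in untreated and 1.92, 1.65 and 1.72 in IFNβ libraries, a difference of -1.27 in log2 ratio, which combines the fall of the target and the rise of its repressor. HMOX1 to HMOX2, the constitutive heme oxygenase, was 3.17, 2.41 and 2.98 and then 1.97, 1.70 and 1.87, a difference of -0.62. HMOX2 itself had a log2 fold change of -0.09 (limma adjusted p = 0.12), with IFNβ libraries just below the untreated ones.

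Some libraries stood at the same end of their group for most of the 6 targets, a pattern noticed after the values were seen. Untreated replicate 2 was the lowest of its group for 6 of 6 targets, while it was the lowest for 31.8% of all genes tested and for 14 of 33 genes of the wider NRF2 target list. IFNβ replicate 1 was the highest of its group for 5 of 6 targets, against 36.4% of all genes tested. The 4 calls were also made without untreated replicate 2 and without IFNβ replicate 1.

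**Figure D3:**
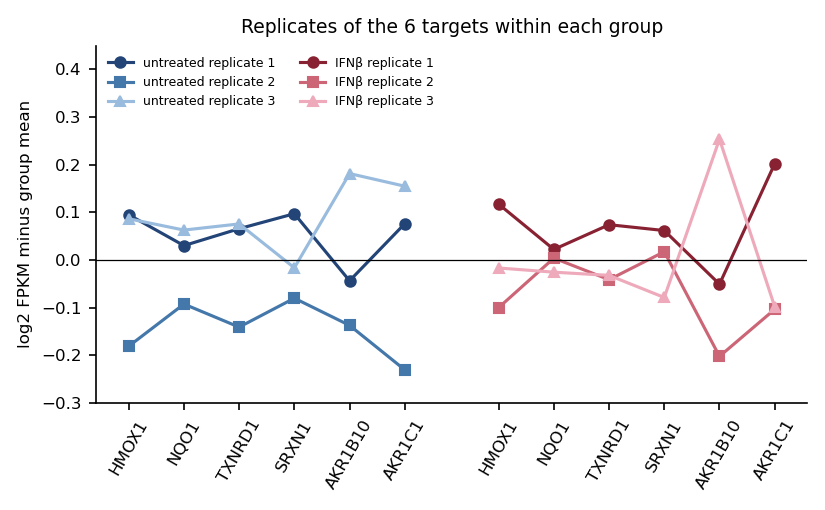
Log2 FPKM of each library minus the mean of its group (vertical axis) for the 6 targets (horizontal axis), untreated on the left and IFNβ on the right. Lines join the values of 1 library. Untreated replicate 2 lies lowest for all 6 targets, and IFNβ replicate 1 lies highest for all but AKR1B10.

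Of 17 further regulators and partners of NRF2, 16 were tested, 7 were higher, 3 were lower and 6 were not called, with a median log2 fold change of 0.11 (all genes tested, 0.00017). The share called was 62.5%, beside 32.7% of all genes tested (15.2% higher and 17.5% lower). A fit limited to genes averaging at least 1 FPKM called 6451 of 11996. The share over all genes tested is therefore a low mark for lists of such genes. CUL3, the scaffold of the ligase that KEAP1 serves, had 13.2, 13.0 and 12.7 FPKM in untreated and 9.92, 10.2 and 10.3 FPKM in IFNβ libraries, a log2 fold change of -0.35 (limma adjusted p = 2.0e-04). CUL3 was lower in every IFNβ library. RBX1, the RING subunit of the same ligase, named after its values were seen, rose by 0.26 (adjusted p = 0.0036). GSK3B, a kinase that marks NRF2 for degradation through another ligase, fell by 0.45 on the log2 scale, and PGAM5, a mitochondrial phosphatase bound by KEAP1, fell by 0.28. SYVN1, a further ligase of NRF2, rose by 0.26, and MAFG, a dimer partner shared by NRF2 and BACH1, rose by 0.27. NFE2L3, a relative of NRF2, had the largest change of the list, with 15.5 ± 0.799 FPKM (S.D., n = 3) in untreated and 32.8 ± 0.891 FPKM (S.D., n = 3) in IFNβ libraries, a rise of 1.08 on the log2 scale (limma adjusted p = 9.6e-06).

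Of 36 wider NRF2 targets, 33 were tested, 11 were higher, 5 were lower and 17 were not called, with a median of 0.065 on the log2 scale. The share called was 48.5%, beside 32.7% of all genes tested. In the fit limited to genes averaging at least 1 FPKM, 16 of 31 wider targets were called, beside 6451 of all 11996. ALDH3A1 and UGT1A6 were listed at 0 in every library, and AKR1C2 was under the level for testing. The largest rises were in ABCC3, an efflux pump for conjugates (0.86, limma adjusted p = 6.7e-05), CBR1, a carbonyl reductase (0.73, adjusted p = 4.8e-05), and AKR1C3, an aldo-keto reductase (0.64, adjusted p = 8.3e-04). CBR1 had 19.5, 17.8 and 19.1 FPKM in untreated and 32.1, 31.1 and 30.3 FPKM in IFNβ libraries. The largest falls among genes called were smaller, in TRIM16L (-0.28), the glutathione conjugate pump ABCC1 (-0.24) and the transketolase TKT (-0.20). GPX2, with 5 to 26 fragments per library and named after its values were seen, had a log2 fold change of -0.89 but was not called (limma adjusted p = 0.066).

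Genes of glutathione synthesis, glutathione reduction and cystine uptake on this list, named here after their values were seen, were split. GCLC, the catalytic subunit of glutamate-cysteine ligase, rose by 0.28 on the log2 scale (limma adjusted p = 0.0042), while GCLM, its modifier subunit, fell by 0.16 (adjusted p = 0.0073). Glutathione reductase GSR fell by 0.19 (adjusted p = 0.0060). SLC7A11, the cystine transporter, was not called, at -0.05 (95% interval -0.25 to 0.14).

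In the heme pathway around HMOX1, 3 of 19 genes were higher, 4 were lower and 12 were not called, with a median log2 fold change of -0.05. The share called was 36.8%, beside 32.7% of all genes tested. It was below the share among genes averaging at least 1 FPKM (6451 of 11996), but the list also holds genes that averaged less, such as ABCB6. BLVRB, a biliverdin reductase downstream of heme oxygenase, had 13.5, 13.7 and 13.4 FPKM in untreated and 17.5, 19.8 and 18.1 FPKM in IFNβ libraries, a log2 fold change of 0.44 (limma adjusted p = 7.7e-04). POR, which passes electrons to heme oxygenase, rose by 0.24, and ABCB6, a porphyrin transporter with 29 to 68 fragments per library, rose by 0.68 (adjusted p = 0.034). CPOX, an enzyme of heme synthesis, fell by 0.28, and the mitochondrial carrier SLC25A39 fell by 0.17. BLVRA, the other biliverdin reductase, named after its values were seen, was not called, at -0.12 (limma adjusted p = 0.30).

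Of 17 genes of the thioredoxin and peroxiredoxin system, 4 were higher, 5 were lower and 8 were not called, with a median of -0.03 on the log2 scale. The share called was 52.9%, beside 32.7% of all genes tested, and near that among genes averaging at least 1 FPKM (6451 of 11996). TXNIP, an inhibitor of thioredoxin, stood out with 1.36, 1.31 and 0.961 FPKM in untreated and 6.65, 7.59 and 7.47 FPKM in IFNβ libraries. TXNIP rose by 2.50 ± 0.13 (SE) on the log2 scale (limma adjusted p = 3.9e-05). The glutaredoxin GLRX rose by 0.55 and the peroxiredoxin PRDX4 by 0.33, whereas GLRX3, the mitochondrial thioredoxin TXN2 and GLRX5 fell by 0.32, 0.31 and 0.29. Of 12 other aldo-keto reductases, 6 were tested, of which AKR1C3 rose, AKR1A1 fell by 0.16 and 4 were not called, with a median of 0.11. The share of these called was 33.3%, close to the 32.7% of all genes tested.

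**Figure D4:**
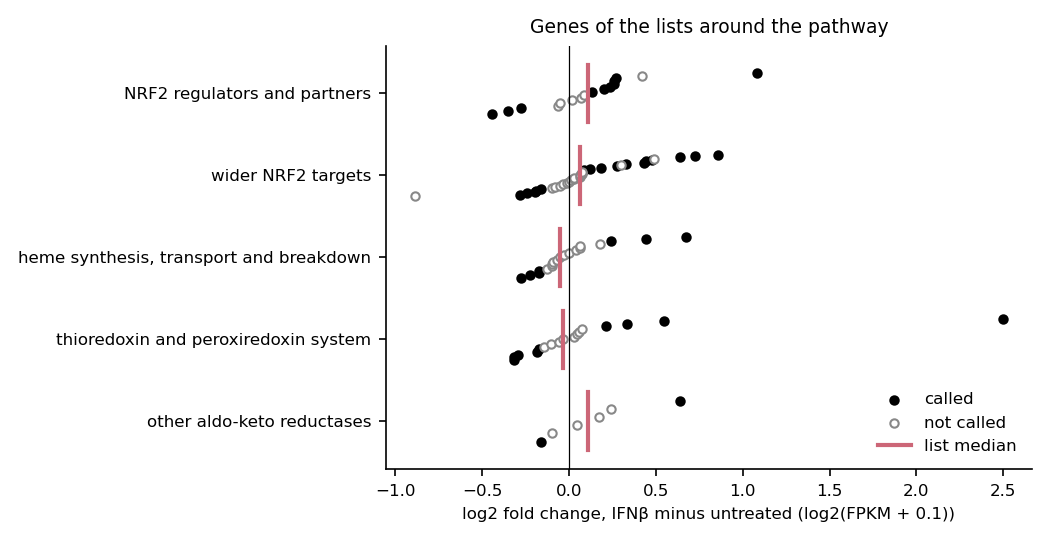
Log2 fold change (IFNβ minus untreated, on the log2(FPKM + 0.1) scale, horizontal axis) of the tested genes of 5 lists around the pathway. Each point is 1 gene, filled where called, and the red line is the median of the list. All 5 medians lie close to 0, between -0.05 and 0.11, with TXNIP (2.50) and NFE2L3 (1.08) far to the right.

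Genes with the most similar pattern over the 6 libraries were sought among the 11996 genes with a mean of at least 1 FPKM, by the Euclidean distance of centred log2 values. For HMOX1 they were MITF (distance 0.128), a transcription factor, and the long noncoding RNAs GAPLINC (0.139) and LINC01605 (0.154). MITF had 1.63, 1.31 and 1.54 FPKM in untreated and 1.02, 0.847 and 0.942 FPKM in IFNβ libraries, with the same low untreated replicate 2 as HMOX1. For BACH1 they were PLCXD2 (0.0475), the kinase TLK2 (0.0622) and FKBP5 (0.0668), a co-chaperone of steroid receptors. TLK2 had 3.75, 3.61 and 3.50 FPKM in untreated and 5.55, 5.28 and 5.58 FPKM in IFNβ libraries. With 6 libraries in 2 groups, such likeness is a description of these values.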

How the data were processed

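RNA of 6 HT1080 libraries (3 untreated, 3 IFNβ) was measured by mRNA sequencing. The authors deposited FPKM for each Ensembl gene and library, without pooling replicates. The submitters' processing notes name fastp, HISAT2, StringTie and GRCh38, without versions. The annotation and strandedness were not given in the sources used here. The study's methods name DESeq2, but FPKM are not counts, so limma was used. Fragments were recovered as whole multiples of the value of 1 fragment, for 100% of the 35303 genes above 0 (tolerance 0.01 fragments). The number of fragments that FPKM were divided by was 22848104 to 32915500 per library, of which 99.7% were recovered, and levels under 0.1 FPKM rest on few fragments. Within a group, libraries differed by more than counting error (chi-square per degree of freedom 1.80 to 3.41).

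Groups were compared with limma 3.58.1 (R 4.3.3), lmFit and eBayes with trend and no covariate. The fit used log2(FPKM + 0.1) and kept genes that averaged 0.1 FPKM or more. Fold changes on this scale understate those of low genes. All adjusted p-values of single genes are Benjamini-Hochberg values over all genes tested. Ratios within libraries were compared by exact two-sided permutation. Other steps used Python 3.11.15 with pandas 2.3.3, numpy 2.4.6, scipy 1.17.1 and biopython 1.88. The fit was tested on simulated data.

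The 9 genes and the lists (NRF2 regulators and partners, wider NRF2 targets, heme synthesis, transport and breakdown, thioredoxin and peroxiredoxin system, other aldo-keto reductases, interferon response) were chosen with earlier results of these data known. Some lists share genes. Named were the 9 genes, the 3 largest rises and 3 largest falls among genes called in each list, any called gene of a list whose log2 fold change was 1 or more in size (for the interferon response given as a range), and the 3 genes nearest to HMOX1 and to BACH1. Some genes that this rule names are not reported here. Others are marked where named, apart from cell type and overlap checks. Locations were read from GENCODE release 29 (GRCh38), which holds 58274 of the 62710 gene IDs, so the authors used another annotation.

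Alternatives were other pseudocounts (1 and 0.01), other filters, equal FPKM totals, median ratio and quantile scaling, eBayes without trend, a replicate block, limma-voom on recovered fragments, each library left out in turn, and other thresholds.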

Additional observations from a re-analysis of the deposited data

How the results depend on the processing

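The calls of BACH1, NFE2L2, NQO1 and HMOX1, and the direction of each, held in all 16 alternative fits, including each left-out library, every scaling, and the replicate block. Over these fits HMOX1 ranged from -0.80 to -0.66 (highest limma adjusted p = 0.0084) and BACH1 from 0.52 to 0.59 (highest adjusted p = 0.0018). With a log2 fold change of at least 1 also required, 0 of the 9 genes, 0 of the wider NRF2 targets and 875 of all genes (722 higher, 153 lower) were called. At an adjusted p under 0.01, 4341 of all genes were called. Limma-voom called 5 of the 9, adding TXNRD1 (0.12, adjusted p = 0.012). It also called more of all genes, 7935 against 6778 in the main fit. Leaving out 1 library, 4 of the 9 genes, 14 to 16 wider targets and 5579 to 6044 of all genes were called. No fold change of the 9 genes changed sign in these fits. Without single libraries, TXNRD1 stood at 0.05 to 0.15 and SRXN1 at 0.0033 to 0.091. AKR1C1 was not tested with a filter of at least 1 FPKM.

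Without single libraries, the log2 ratio of HMOX1 to NQO1 differed by -1.05 to -0.95, to TXNRD1 by -0.85 to -0.80, to SRXN1 by -0.80 to -0.69, to AKR1B10 by -0.46 to -0.25 and to AKR1C1 by -0.87 to -0.80, and BACH1 to NFE2L2 by 0.32 to 0.36. With a pseudocount of 1, HMOX1 to AKR1C1 differed by -0.75, where the added 1 FPKM exceeds the level of AKR1C1.

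Replicate numbers were not taken as pairs, since same-numbered libraries deviated from their group means with correlations of 0.053, -0.02 and 0.12, and not every library correlated best with its own number. With the replicate number as a block, 6069 genes were called (6778 without), 4 of the 9 among them, and HMOX1 stood at -0.71 (adjusted p = 0.0013). Depth limits AKR1B10, with 46 to 101 fragments per library, most.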
